A study of Mus musculus with 6 samples.

Results

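The genes described here encode 3 families of enzymes that follow or complement oxidation in drug and lipid metabolism: the UDP-glycosyltransferases (UGT), the cytosolic sulfotransferases (SULT) and the aldehyde dehydrogenases (ALDH). They were chosen by symbol, with earlier results of these data known. Members were all genes named on the array that begin with Ugt, Sult or Aldh and a digit. The retinaldehyde dehydrogenases Aldh1a1, Aldh1a2 and Aldh1a3 were left out. This gave 45 genes of the 18217 named on the array, read by 57 probes, with 15 UGT, 14 SULT and 16 ALDH genes. The gene annotation held 62 such symbols (22 UGT, 22 SULT and 18 ALDH), and those without a matched probe were not read. Epidermis of newborn mice at postnatal day 0, of a strain labelled mix, was profiled on 6 one-colour Agilent arrays. The 3 AhRCA mice expressed a permanently active AhR from the keratin 14 promoter, which is used by basal keratinocytes. AhR, the aryl hydrocarbon receptor, is the transcription factor that dioxins and other planar compounds switch on. The controls were 3 wild-type (WT) littermates, 1 for each AhRCA mouse. The number of transgenic lines was not given in the sources used here.

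UGT enzymes of the 1A and 2B groups transfer glucuronic acid from UDP-glucuronate to phenols, steroids, bilirubin and drugs in the endoplasmic reticulum, which makes them water soluble. SULT enzymes transfer sulfate from the donor PAPS to phenols, oestrogens and sterols in the cytosol, and in epidermis cholesterol sulfate is a regulator of cornification. ALDH enzymes oxidize aldehydes to acids, among them aldehydes from alcohols, amino acids, membrane lipids and fatty alcohols. In mouse liver and hepatoma cells the AhR gene battery is classically described with a Ugt1a6 form and Aldh3a1 beside Cyp1a1 and Nqo1.

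Levels are log2 processed intensities minus each array's 75th percentile, so 0 is the 75th percentile of an array's signal, and levels of different probes are not comparable. A gene was tested where 3 or more of the 6 arrays read a probe well above background. A call of change needed an adjusted p under 0.05 (limma, adjusted by Benjamini-Hochberg over all 12824 tested genes). Slide 1 held litter pairs 1 and 2, and slide 2 held pair 3. Xist was high in pairs 1 and 2 and low in pair 3, and the Y-linked transcripts were high only in pair 3, so slide, litter pair 3 and male sex coincided and were balanced between genotypes. The AhR targets Cyp1a1, Cyp1b1, Ahrr, Nqo1 and Tiparp, 5 of 5, rose in AhRCA, with a log2 fold change for Nqo1 of 2.13 ± 0.19 (SE, 3 mice per group, adjusted p = 0.00546). Of 10 keratinocyte markers on the array all 10 were tested and 1, Krt15, fell (0 to 1 with 1 array left out). Of 13 sebaceous gland markers 11 were on the array, 10 were tested and 7 fell (3 to 7 with 1 array left out). The summed linear level of the 10 was 22.1 to 23.7 on AhRCA arrays and 35.1 to 44.7 on WT arrays. Bright probes weigh most in that sum. Elovl4, the brightest, had a log2 fold change of -0.06, and the median of the 10 was -1.27. Of 5 Merkel cell markers 4 were tested and 3 fell (1 to 2 with 1 array left out), and 1 of 6 Langerhans cell and 1 of 9 hair follicle markers fell (each 0 to 1 with 1 array left out). None of 4 endothelial markers was tested. In whole epidermis fewer cells of a type and less RNA per cell cannot be told apart.

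The 3 families differed in the share of their genes that the arrays detected. Of 16 ALDH genes 15 (93.8%) were tested, all 15 well above background on all 6 arrays. Of 14 SULT genes 6 (42.9%) were tested and 8 were not well above background anywhere. Of 15 UGT genes 5 (33.3%) were tested and 9 were below that mark throughout. Among all named genes 70.4% were tested.

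Detection differed between the subfamilies as well. Of the UGT2 group, whose members in mouse are known mainly from liver and olfactory epithelium, 1 of 9 genes was tested, Ugt2b34. Ugt2a1, Ugt2a3, Ugt2b1, Ugt2b5, Ugt2b36, Ugt2b37 and Ugt2b38 were not detected by this mark on any array. The same held for Ugt1a9 and for Ugt8a, which transfers galactose to ceramide in myelin-forming cells. Ugt2b35 was well above background on 2 WT arrays and no AhRCA array, at levels of -7.04, -6.45 and -7.23 in AhRCA, against -4.82, -7.33 and -2.79 in WT. WT 2 was below all 3 AhRCA arrays, and no fold is given. Both genes of the UGT3A group were detected on all 6 arrays, Ugt3a2 by 1 of its 2 probes. The other Ugt3a2 probe did not reach this mark on any array. Among sulfotransferases, Sult1b1, Sult1c2, Sult1d1, the oestrogen sulfotransferase Sult1e1, Sult2a2, Sult2a4, Sult3a2 and Sult6b1 did not exceed it on any array. Not being above background on these arrays sets only an upper bound to a level and does not show that a transcript is absent.

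**Figure D1:**
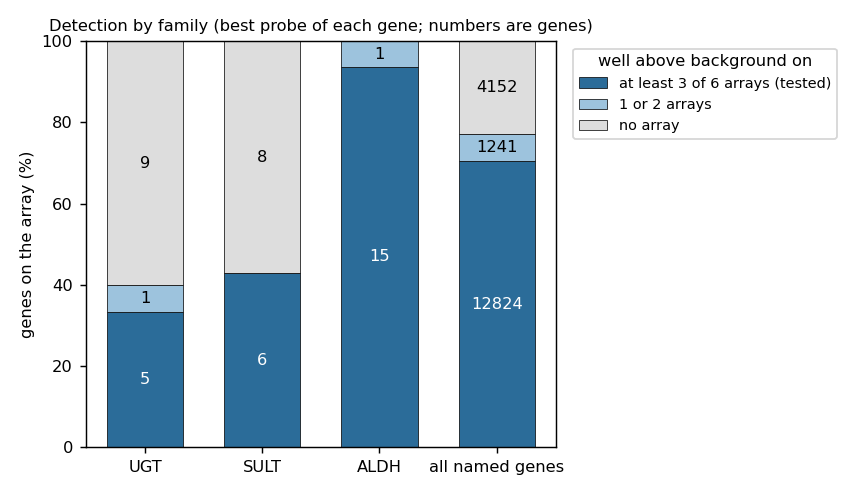
Share of genes (percent, vertical axis) by the number of arrays on which a probe was well above background, for the 3 families and all named genes. ALDH had 15 of 16 genes tested, SULT 6 of 14 and UGT 5 of 15.

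In the comparison of AhRCA with WT, by a fit without a block for litter pair or slide, 1 of the 26 tested members was called changed. This was the UGT Ugt1a1, which fell. Across all tested genes 279 (2.18%) were called, 0.530% higher and 1.65% lower in AhRCA. An unadjusted p under 0.05 was reached by 2 of 5 UGT, 2 of 6 SULT and 2 of 15 ALDH genes (limma), and by 1563 of the 12824 tested genes. The median log2 fold change was -0.80 in UGT, 0.02 in SULT and -0.06 in ALDH, against 0.00 over all tested genes. Of the 26 members, 8 were higher and 18 lower in AhRCA (16 lower with each array centred on its median), whereas 6463 of all genes were higher and 6361 lower. A difference beyond 0.5 on the log2 scale was found in 4 of 5 UGT, 1 of 6 SULT and 2 of 15 ALDH genes, and in 1283 of the 12824 tested genes. In 5 of 26 members the groups did not overlap, as in 16.4% of all genes. Sult1a1 alone had AhRCA above WT (7.52% of all genes), and Ugt1a1, Sult5a1, Aldh1b1 and Aldh1l1 had AhRCA below WT (8.84% of all genes). No test of a whole family was made.

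**Figure D2:**
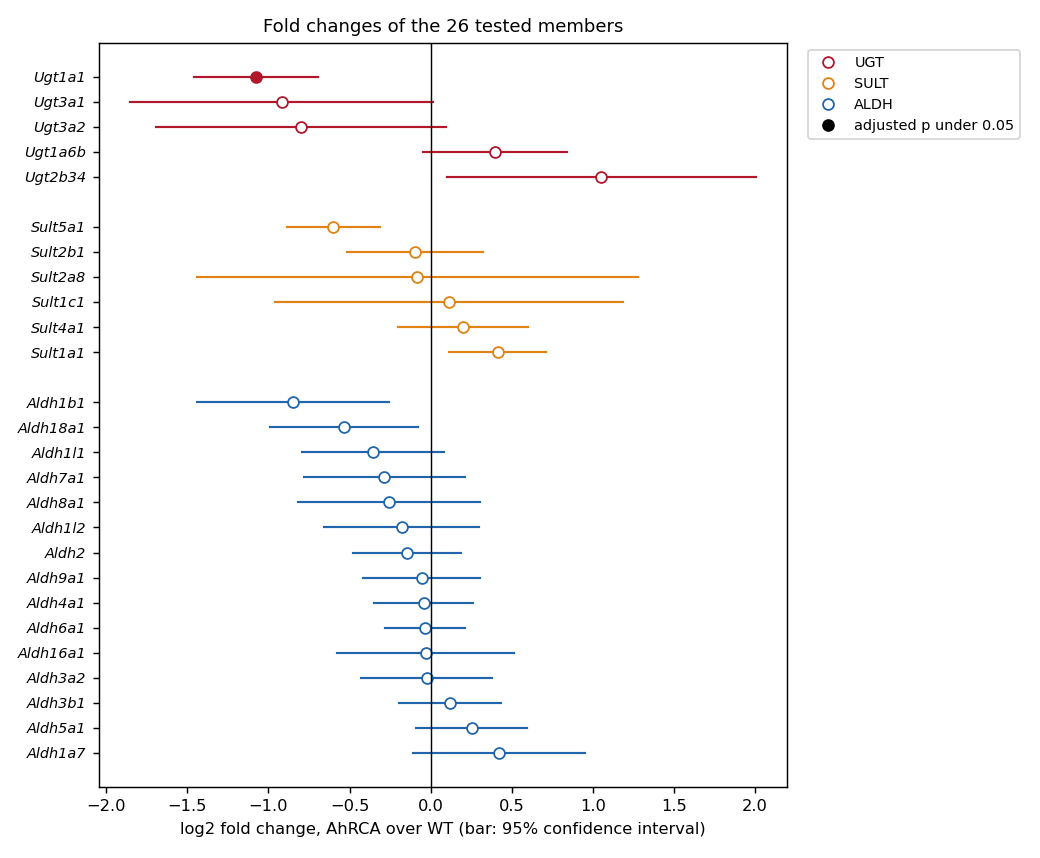
Log2 fold change of AhRCA over WT for the 26 tested members, with bars for the 95% confidence interval (limma, n = 3 per group). Ugt1a1 alone has a filled symbol for an adjusted p under 0.05, and most ALDH genes lie within 0.3 of 0.

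Ugt1a1, which conjugates bilirubin in liver, was the member called. It stood at -2.29, -2.73 and -2.26 in AhRCA 1 to 3, against -1.33, -1.48 and -1.24 in WT 1 to 3. Every AhRCA array was below every WT array, with means of -2.43 ± 0.26 in AhRCA and -1.35 ± 0.12 in WT (SD, n = 3 each). The log2 fold change was -1.07 ± 0.16 (SE), 2.11-fold lower in AhRCA, with an adjusted p of 0.0271. Within litter pairs the differences were -0.96, -1.25 and -1.01, and a block for the litter pair gave an adjusted p of 0.0157. On slide 1 alone the log2 fold change was -1.10 and the adjusted p 0.0904. Leaving out any 1 array gave adjusted p-values of 0.0560 to 0.0911, so that the call was lost each time while the log2 fold change stayed between -1.16 and -0.92. The Ugt1a genes share their last exons, and where the probe lies in the transcript was not analysed, so reads of the shared part by the Ugt1a1 probe were not tested. Sebaceous gland markers fell in the same arrays, as given above, and their part in this result was not tested.

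The promoter of Ugt1a1 is shown because that gene carried the only called change. It runs from 250 bases before to 50 after the annotated start and comes from RefSeq (GRCm38.p6, chr1:88211709-88212008, plus strand), in lower case, with the xenobiotic response element core, GCGTG or on the other strand CACGC, in capitals where present.
Ugt1a1: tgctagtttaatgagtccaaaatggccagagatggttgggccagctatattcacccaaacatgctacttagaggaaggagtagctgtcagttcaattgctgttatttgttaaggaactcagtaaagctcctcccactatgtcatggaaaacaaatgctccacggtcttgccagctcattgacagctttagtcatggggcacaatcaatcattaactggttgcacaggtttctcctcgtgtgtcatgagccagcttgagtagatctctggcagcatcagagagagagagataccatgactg
No core is among these letters, which says nothing about AhR binding elsewhere. The core was found in 32.4% of 32851 RefSeq mouse promoters of this length, in 10 of 41 promoters of 37 member genes, and in 7 of 23 promoters of 20 tested members.

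Ugt1a6b, a UGT that conjugates planar phenols, was higher in AhRCA without passing the test. Its levels were 4.21, 4.53 and 4.42 in AhRCA and 3.69, 3.95 and 4.33 in WT. The groups overlapped, and the log2 fold change was 0.40 ± 0.19 (adjusted p = 0.504). Mouse Ugt1a6b has a near-identical neighbour, Ugt1a6a, and whether the probe reads both was not analysed.

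Ugt2b34 was read close to background, on 2 of 3 AhRCA arrays and 1 of 3 WT arrays. It stood at -4.23, -4.80 and -4.23 in AhRCA, against -4.56, -6.06 and -5.80 in WT. The log2 fold change was 1.05 ± 0.40 (adjusted p = 0.343), and 0.44 with normexp background correction. WT replicate 1 was the 1 WT array on which it was well above background. Without that array the adjusted p was 0.0443, but no measured WT level remained for the comparison. The neighbouring genes Ugt3a1 and Ugt3a2, whose human counterparts use sugars other than glucuronic acid, were both lower in AhRCA in all 3 pairs without passing the test. Ugt3a1 stood at -2.87, -1.50 and -1.93 in AhRCA, against -1.66, -1.19 and -0.71 in WT, a log2 fold change of -0.92 ± 0.39 (adjusted p = 0.421). Ugt3a2 stood at -2.27, -1.04 and -1.25 in AhRCA, against -1.11, -0.84 and -0.21 in WT, with a log2 fold change of -0.80 ± 0.37 (adjusted p = 0.496). In both genes the difference was smallest in pair 2, at -0.32 in Ugt3a1 and -0.19 in Ugt3a2, and -1.04 or beyond in the other pairs. The Ugt3a1 and Ugt3a2 probes ranked the arrays in the same order. Whether either probe reads both genes was not analysed, so they may not be separate members in the UGT counts and median.

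**Figure D3:**
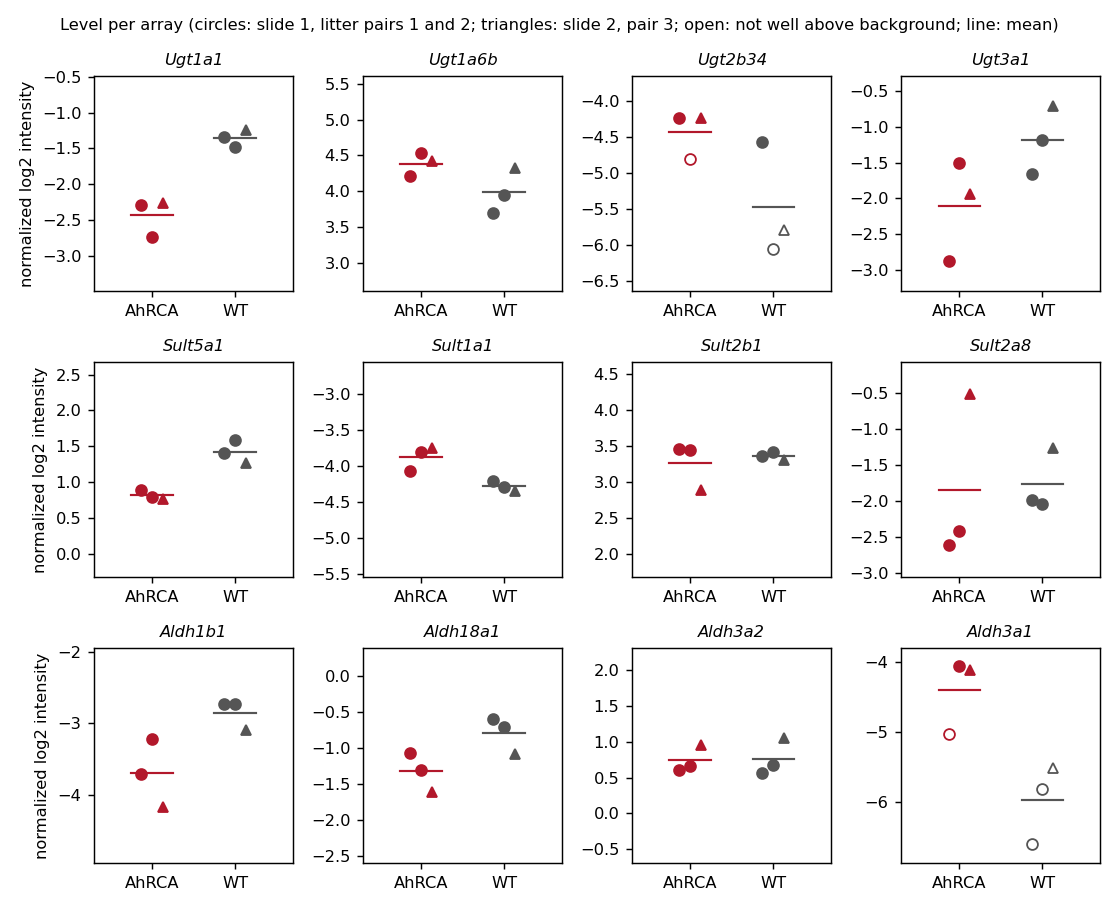
Normalized log2 intensity per array for 12 members, AhRCA left of WT, with the mean as a line (circles, slide 1; triangles, slide 2; open symbols, not well above background). Each panel has its own vertical range of at least 3 log2 units; Ugt1a1 and Sult5a1 separate the groups, and Aldh3a2 and Sult2b1 do not.

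Sult5a1 had the largest difference among the 6 tested sulfotransferases, of which 0 were called (limma, 2 at an unadjusted p under 0.05). It stood at 0.89, 0.80 and 0.77 in AhRCA, against 1.41, 1.59 and 1.27 in WT. Every AhRCA array was below every WT array, with a log2 fold change of -0.60 ± 0.12 (adjusted p = 0.0658). Within pairs it was -0.52, -0.79 and -0.50. A block for the slide brought the adjusted p to 0.0312, past the threshold, in a fit that called 4.20% of all genes. A block for the litter pair gave 0.0557, in a fit that called 3.88%.

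The promoter of Sult5a1, shown because this was the largest sulfotransferase difference, holds no core in its 300 bases (RefSeq, GRCm38.p6, chr8:123158231-123158530, minus strand).
Sult5a1: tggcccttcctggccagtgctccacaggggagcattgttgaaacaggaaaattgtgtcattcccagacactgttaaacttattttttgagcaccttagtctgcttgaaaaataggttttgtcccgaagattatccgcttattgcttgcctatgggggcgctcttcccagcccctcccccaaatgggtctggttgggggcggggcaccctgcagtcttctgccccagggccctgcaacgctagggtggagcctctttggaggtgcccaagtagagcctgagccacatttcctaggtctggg

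Sult1a1, the phenol sulfotransferase, was dim and slightly higher in AhRCA, at -4.07, -3.80 and -3.74, against -4.20, -4.29 and -4.35 in WT. The groups did not overlap, and the log2 fold change of 0.41 ± 0.13 had an adjusted p of 0.210 and was 0.11 with normexp background correction. Sult4a1, a form best known from brain, stood at -3.25, -3.29 and -3.59 in AhRCA and -3.29, -3.72 and -3.70 in WT, with a log2 fold change of 0.20 ± 0.17 (adjusted p = 0.881). A second probe of Sult4a1 was not well above background on any array. Sult2b1, which sulfates cholesterol in differentiating keratinocytes, had a small mean difference between genotypes. It stood at 3.46, 3.45 and 2.89 in AhRCA, against 3.36, 3.42 and 3.31 in WT, a log2 fold change of -0.10 with a 95% interval of -0.51 to 0.32 (adjusted p = 0.999). That mean joins pair differences of 0.10, 0.03 and -0.42. The genotype difference of Sult2b1 differed between slides by -0.48 (limma, unadjusted p = 0.0235, adjusted p = 0.492).

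Sult1c1 and Sult2a8 were set apart by slide more than by genotype. Sult1c1 stood at -3.86, -3.84 and -2.89 in AhRCA and -4.11, -4.11 and -2.71 in WT, so that both arrays of slide 2 were above the 4 of slide 1. Its slide difference was 1.18 (adjusted p = 0.00908) and its genotype log2 fold change 0.11 ± 0.45. Sult2a8 stood at -2.62, -2.42 and -0.50 in AhRCA and -1.99, -2.05 and -1.26 in WT, with a slide difference of 1.39 (adjusted p = 0.0383) and a genotype difference of -0.08 ± 0.57. That mean joins pairs of opposite sign, -0.63 and -0.37 on slide 1 and 0.76 on slide 2. Its genotype difference differed between slides by 1.26 (limma, unadjusted p = 0.00197, adjusted p = 0.443). A slide difference was called for 5 of 26 members and for 14.5% of all genes. The other members were Aldh16a1 (-0.55, slide 2 minus slide 1), Aldh18a1 (-0.43) and Aldh3a2 (0.38); slide, litter and sex cannot be told apart here. The genotype difference itself was called as differing between slides in 0 of 26 members (limma, 4 at an unadjusted p under 0.05). Over all genes it was called in 1 of 12822 (0.00780%), with 1280 at an unadjusted p under 0.05.

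Of 15 tested ALDH genes 0 were called (limma without a block, 2 at an unadjusted p under 0.05). In AhRCA 12 of 15 were lower, or 10 of 15 with each array centred on its median. Aldh1b1, a mitochondrial form that oxidizes acetaldehyde, had the largest difference. It stood at -3.71, -3.23 and -4.16 in AhRCA, against -2.73, -2.74 and -3.09 in WT. Every AhRCA array was below every WT array, with a log2 fold change of -0.85 ± 0.25 (adjusted p = 0.188), and -0.39 with normexp background correction. Within pairs it was -0.98, -0.49 and -1.07, and the adjusted p was 0.0594 with the litter pair and 0.0523 with the slide as a block.

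Aldh18a1, which makes the proline precursor pyrroline-5-carboxylate, differed by similar amounts in every pair. It stood at -1.06, -1.31 and -1.61 in AhRCA, against -0.59, -0.71 and -1.08 in WT. The groups overlapped, and the array of slide 2 was the lowest of its genotype in both. Within pairs the differences were -0.47, -0.60 and -0.53. The log2 fold change was -0.53 ± 0.19 (adjusted p = 0.308). It was called when the litter pair was blocked, at an adjusted p of 0.0483, and when the slide was blocked, at 0.0486, both just inside the threshold.

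The promoters of these ALDH genes are shown with that of Aldh3a2, whose level was close between genotypes, since Aldh18a1 and Aldh3a2 hold the core and Aldh1b1 does not. They come from RefSeq (GRCm38.p6), Aldh18a1 from chr19:40588414-40588713, minus strand, Aldh1b1 from chr4:45798772-45799071, plus strand, and Aldh3a2 from chr11:61267137-61267436, minus strand.
Aldh18a1: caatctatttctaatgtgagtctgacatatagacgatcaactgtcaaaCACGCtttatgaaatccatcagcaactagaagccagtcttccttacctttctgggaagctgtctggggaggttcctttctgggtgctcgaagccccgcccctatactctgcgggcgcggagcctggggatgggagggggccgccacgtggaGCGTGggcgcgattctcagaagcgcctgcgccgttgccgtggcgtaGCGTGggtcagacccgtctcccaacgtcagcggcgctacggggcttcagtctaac
Aldh1b1: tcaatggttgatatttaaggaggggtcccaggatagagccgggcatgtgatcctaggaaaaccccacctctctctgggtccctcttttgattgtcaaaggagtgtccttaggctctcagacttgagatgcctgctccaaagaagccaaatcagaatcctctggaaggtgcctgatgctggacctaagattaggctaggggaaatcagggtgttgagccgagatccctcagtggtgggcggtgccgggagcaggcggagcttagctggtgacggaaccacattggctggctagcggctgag
Aldh3a2: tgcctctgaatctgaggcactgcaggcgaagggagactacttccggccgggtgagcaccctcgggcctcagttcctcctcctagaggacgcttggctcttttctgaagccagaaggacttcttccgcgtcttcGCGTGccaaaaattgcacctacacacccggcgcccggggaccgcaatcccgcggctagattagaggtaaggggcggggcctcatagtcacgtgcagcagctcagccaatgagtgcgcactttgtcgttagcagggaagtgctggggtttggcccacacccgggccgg
Aldh18a1 holds 3 cores, which begin at bases 49, 200 and 246 of its 300, and Aldh3a2 holds 1, at base 134. A longer form, TNGCGTG, read on both strands, which contains the core, was in 4 of the 41 member promoters and in 5.07% of all.

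The other ALDH genes differed less. Aldh1a7, a cytosolic form close in sequence to Aldh1a1, stood at 2.74, 2.81 and 2.38 in AhRCA, against 1.78, 2.40 and 2.48 in WT, a log2 fold change of 0.42 ± 0.22 (adjusted p = 0.587). Its pairs differed by 0.96, 0.40 and -0.10, and a contribution of Aldh1a1 transcript to this probe was not tested. Aldh1l1, which oxidizes formyltetrahydrofolate, stood at -2.24, -2.24 and -2.75 in AhRCA and -1.85, -2.07 and -2.24 in WT. The groups met at -2.24 without overlapping, and the log2 fold change was -0.36 ± 0.18 (adjusted p = 0.569).

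The remaining 11 ALDH genes had log2 fold changes between -0.28 and 0.25, with adjusted p-values of 0.645 to 0.999. Among the enzymes of amino acid breakdown, Aldh7a1 of lysine catabolism had -0.28 ± 0.21, Aldh8a1 of tryptophan catabolism -0.26 ± 0.23, Aldh4a1 of proline catabolism -0.04 ± 0.13 and Aldh6a1 of valine catabolism -0.03 ± 0.10. Aldh5a1, which clears succinic semialdehyde from the breakdown of GABA, had 0.25 ± 0.14. Aldh9a1, an enzyme of carnitine synthesis, had -0.06 ± 0.15. Aldh1l2, the mitochondrial relative of Aldh1l1, had -0.18 ± 0.20, Aldh3b1, which oxidizes lipid aldehydes, 0.12 ± 0.13, and Aldh16a1 -0.03 ± 0.23. These are log2 fold changes ± SE, and the groups overlapped in each of these genes. Aldh3a2 oxidizes fatty aldehydes, and its loss in humans causes the ichthyosis of Sjögren-Larsson syndrome. It stood at 0.61, 0.66 and 0.96 in AhRCA, against 0.57, 0.68 and 1.05 in WT. The difference was -0.03 with a 95% interval of -0.43 to 0.38. Aldh2 stood at 3.20, 3.19 and 2.86 in AhRCA and 3.32, 3.27 and 3.08 in WT, with a log2 fold change of -0.14 ± 0.14 (adjusted p = 0.925). Aldh9a1 had 2 kept probes, with log2 fold changes of -0.06 and 0.02, whereas the 2 kept probes of Aldh4a1 differed in the same direction. Aldh1l2 and Aldh7a1 each had a further probe that was not kept, well above background on 2 arrays and on 1. The 95% intervals of the 11 genes lay between -0.82 and 0.59, and differences of that size could not be resolved for every gene with 3 mice per group.

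Aldh3a1, the ALDH of the classical AhR battery, was the one ALDH gene below the detection rule. It stood at -5.04, -4.07 and -4.13 in AhRCA, against -6.60, -5.82 and -5.51 in WT. It was well above background on 2 of 3 AhRCA arrays and 0 of 3 WT arrays. With each WT reading raised to its array's lowest signal well above background, the AhRCA mean was 1.57-fold higher than the WT mean. That AhRCA mean includes AhRCA 1, so 1.57-fold is not a strict lower bound. The WT readings and that of AhRCA 1 were not well above background, so no log2 fold change is given.

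**Figure D4:**
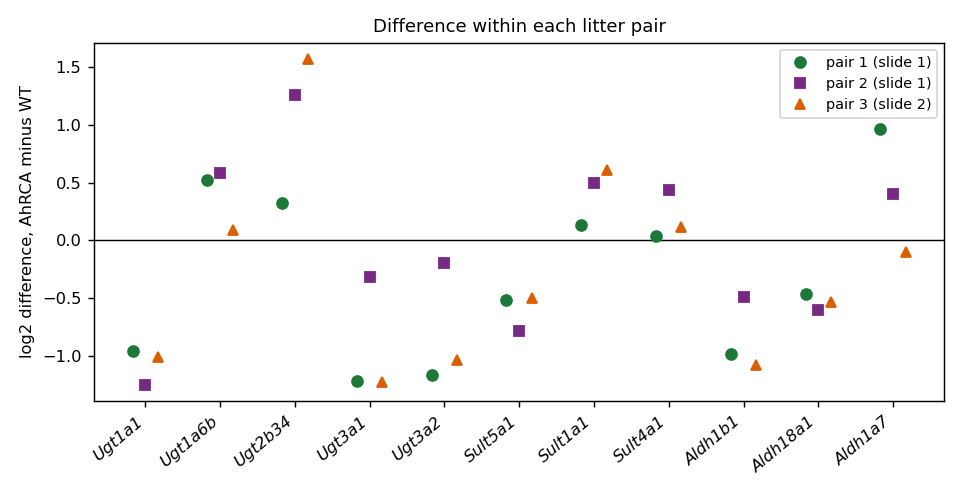
Difference of AhRCA minus WT within each litter pair (log2, vertical axis) for the 5 UGT members and the 3 SULT and 3 ALDH members with the largest differences. Aldh18a1 and Ugt1a1 have similar differences in all 3 pairs, whereas Ugt3a1 and Ugt3a2 are nearer 0 in pair 2.

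The supply and disposal of conjugates was described with lists of companion genes. Of 8 genes of UDP-glucuronate supply and glucuronide turnover 7 were on the array and all 7 were tested. Of these 0 were called (limma, 0 at an unadjusted p under 0.05), with a median log2 fold change of -0.01. The largest differences were those of the nucleotide sugar transporters Slc35a3, 0.33 ± 0.33, and Slc35b1, -0.08. Ugdh, which makes UDP-glucuronate, stood at 2.06, 1.99 and 1.81 in AhRCA, against 2.18, 1.88 and 1.82 in WT. Of 13 genes of sulfate donor supply and sulfatases 10 were on the array and 9 were tested. Sts, Slc35b2 and Impad1 had no probe matched to them. Of the 9 tested genes 0 were called (limma, 1 at an unadjusted p under 0.05, median 0.04). The largest differences were in Slc35b3, a PAPS transporter, at 0.38 ± 0.14, and Papss2, which makes PAPS, at -0.31 ± 0.50. Of 12 genes of other conjugation enzymes and epoxide hydrolases 8 were tested and 0 were called (limma, 1 at an unadjusted p under 0.05, median 0.04). Ephx1, the microsomal epoxide hydrolase, had the largest difference there, -0.53 ± 0.14 (adjusted p = 0.134), followed by the arsenic methyltransferase As3mt at 0.20. Of 9 listed transporters of the Abc and Slco families 8 were tested and 0 were called (limma, 4 at an unadjusted p under 0.05). These 4 were Abcc3, Abcc4 and Abcc5, higher in AhRCA, and Abcg2, lower. Abcc3, which exports glucuronides, stood at 0.71, -0.26 and -0.25 in AhRCA, against -1.07, -1.26 and -0.96 in WT, a log2 fold change of 1.16 ± 0.28 (adjusted p = 0.109), and the prostaglandin carrier Slco2a1 was at -0.38.

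Among 22 genes listed as producing, reducing or, for the Aox genes, oxidizing aldehydes 20 were on the array and 14 were tested. Of these 0 rose and 2 fell, and 1 to 3 were called with 1 array left out. Akr1c18, which inactivates progesterone, stood at -5.77, -4.66 and -5.50 in AhRCA, against -2.07, -1.15 and -1.87 in WT, a log2 fold change of -3.61 ± 0.35 (adjusted p = 0.00787). It was well above background on 1 of 3 AhRCA arrays, and within slide 1 its adjusted p was 0.0781. With normexp background correction its log2 fold change was -1.72 (adjusted p = 0.00858). Maob, which makes aldehydes from amines, stood at -3.76, -3.70 and -4.22 in AhRCA, against -1.85, -1.92 and -2.41 in WT, a log2 fold change of -1.83 ± 0.21 (adjusted p = 0.0121, and 0.0576 without WT replicate 2), and -1.01 with normexp background correction. Adh7, which oxidizes retinol and ethanol, stood at -1.89, -1.32 and -0.76 in AhRCA, against -4.81, -5.21 and -2.91 in WT. Its log2 fold change of 2.99 ± 0.61 had an adjusted p of 0.0706, and of 0.0262 when the litter pair was blocked. It was also called with the slide blocked (adjusted p = 0.0142), within slide 1 (0.0396), with median scaling (0.0391) and without WT replicate 3 (0.0189), but without any other array the adjusted p was 0.133 to 0.213. With normexp background correction the log2 fold change was 1.60 (adjusted p = 0.0324). The Adh7 probe exceeded background clearly on 3 of 3 AhRCA arrays and 2 of 3 WT arrays.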

How the data were processed

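Per the labels' protocols, epidermal RNA was isolated by RNeasy Micro columns and Cy3-labelled by Quick Amp. Each of 3 samplings paired 1 AhRCA mouse with 1 WT littermate, so replicates were separate mice. The spot intensity values were written, per the file headers, by Feature Extraction (Agilent, version 10.7.3.1), with background subtracted within each array and no scaling between arrays. The authors' deposited table holds log2 values that followed the scanner values with a slope of 1, with column medians between -0.07 and 0.08. It runs in the direction of the intensities, with arrays and probes centred.

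Control and outlier spots were left out (45018 spots per array, 1639 of them controls; 0 were saturated). Replicate spots were averaged, and the 75th percentile of an array was subtracted from its log2 processed intensities. Between 56.2% and 61.3% of spots were well above background, and precision is limited by the number of arrays. Symbols were obtained from RefSeq accessions through a table of GRCm38.p6, where 26690 of 41174 probes matched 1 symbol, 0 several and 14484 none. The brightest kept probe stood for a gene. Genotypes were compared with limma 3.58.1 (lmFit and eBayes, R 4.3.3), two-sided and without a block in the main fit, with Benjamini-Hochberg adjustment. Where no array of a group read a member well above background, that group's readings were raised to each array's lowest signal well above background. Only the resulting fold, or none, is given. It is a strict lower bound only where every array of the other group read the gene well above background. The normexp alternative (offset 50) used median spot signals, as mean signals were not used here. Other alternatives were the scaling, the filter, the probe choice, blocks for pair and slide, slide 1 alone, single arrays left out and the authors' table.

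Same-numbered arrays correlated at 0.337, 0.372 and 0.550 in their deviations from the group means over 12821 genes, and others at -0.416 to 0.194. Deviations of the 3 arrays of a group cancel out, which ties these values to each other. Pair 3 alone was male and on slide 2. Among the arrays of slide 1, same-numbered ones had 0.337 and 0.372, and the others 0.194 and 0.150. With the littermate samplings of the labels the pairing was accepted. The members and lists were chosen with earlier results of these data known. Values in every sample are given for called members, including those called under a block, and for the 3 largest differences of each family; companion lists give up to 4 called genes or the 2 largest differences. Ugt1a6b, Ugt3a2, Sult2b1, Sult1c1, Sult2a8, Aldh1l1, Aldh2, Aldh3a2, Ugdh and Adh7 were added after their values were seen. The fit was tested on simulated data with independent arrays. These held no litter pair or slide effect, so the simulation does not cover calls where such effects are present.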

Additional observations from a re-analysis of the deposited data

Results flagged for a closer look

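Aldh3a1 fell outside the comparison because its probe was well above background on fewer than 3 arrays. It was well above background on 2 of 3 AhRCA arrays and 0 of 3 WT arrays. With the WT readings raised to each array's lowest signal well above background it was 1.57-fold higher in AhRCA. This is not a strict lower bound, as AhRCA 1 was not well above background.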

How the results depend on the processing

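The count of called genes among all tested was 132 without the filter on dim probes, 497 with the litter pair as replicate block, 539 with the slide as a block, 130 within slide 1 and 62 to 195 when 1 array was left out, against 279. The count of UGT genes called was 0 without the filter and within slide 1, and 0 to 1 with 1 array left out. That 1 was Ugt2b34, higher in AhRCA without WT replicate 1, and Ugt1a1 was not called with any array left out. The count was 1 for SULT with the slide as a block, and 1 for ALDH with the replicate block and with the slide as a block. For Ugt1a1 the log2 fold change was -1.07 without the filter (adjusted p = 0.0679), -1.10 within slide 1 (adjusted p = 0.0904) and -1.16 to -0.92 with 1 array left out. More genes are tested without the filter and fewer arrays enter the other settings. Of the other member results, 396 kept direction and side of the threshold, 24 reversed and 4 gained a call. The reversed members had log2 fold changes between -0.10 and 0.11. With median scaling Aldh16a1 was at 0.0022 and Aldh3a2 at 0.0079. Within slide 1 Aldh3a2 was at 0.0097, Aldh4a1 at 0.0021, Aldh6a1 at 0.028 and Sult2b1 at 0.063. With 1 array left out Aldh16a1 ranged from -0.25 to 0.12, Aldh3a2 from -0.13 to 0.12, Aldh4a1 from -0.11 to 0.041, Aldh6a1 from -0.074 to 0.013, Aldh9a1 from -0.15 to 0.068, Sult1c1 from -0.21 to 0.58, Sult2a8 from -0.75 to 0.30 and Sult2b1 from -0.19 to 0.091. The cause was not tested. Apart from the calls named here and in the results, blocks changed no call of a member. With normexp background correction the dim genes Sult1a1, Ugt2b34 and Aldh1b1 were at 0.11, 0.44 and -0.39.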
